A study of Mus musculus with 24 samples.

Results

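Retinoic acid, the active form of vitamin A, was followed here through the RNA of 9 genes grouped under its synthesis and response. Some of them act on retinol or retinaldehyde, from which it is made. The members were Rbp4, Stra6, Dhrs3, Aldh1a1, Aldh1a2, Aldh1a3, Aldh1a7, Rarb and Cyp26b1. They were found by gene symbol, 9 of 55401 genes in the deposited count table, and all 9 passed the filter on low counts in every comparison. They had been picked for how they differ between tissues and between ages, so those levels and differences are given below as descriptions without a test. The difference between sexes was no part of that choice and was tested.

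Cells take up retinol, which travels in blood bound to a carrier protein, and oxidise it first to retinaldehyde and then to retinoic acid. Retinoic acid binds nuclear receptors that sit on paired repeats in DNA and switch genes on, among them the genes of its own receptor and of the enzymes that remove it. Kidney filters and recovers the carrier, heart needs a controlled dose during development, and adipose tissue stores and releases retinoids.

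C57BL6/J mice of 2 ages, 16.5 weeks and 86 weeks, gave heart left ventricle, kidney and skeletal muscle, from which total RNA was sequenced after ribosomal RNA was removed. The younger mice were females 14 and 15 and males 19 and 20, and the older mice were females 11 and 12 and males 14 and 17, so number 14 names a different mouse at each age. Each of the 8 mice gave all 3 tissues, 24 libraries in all, with 2 mice per age and sex. The labels name no genotype beyond the strain and no treatment, and leave the muscle and the kidney region unnamed. The mice are separate animals per the labels, so within a tissue p-values measure the spread between them. Fits across tissues count the 3 libraries of a mouse as separate, except where the mouse was a block.

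Library totals ran from 52602585 to 103797551 counts, and 1 count was worth at most 0.0202 CPM (counts scaled to library size across the 24 libraries). The tissues carried their own defining genes: summed cardiomyocyte markers were 41177 to 59087 CPM in left ventricle, summed skeletal fibre markers 114288 to 172519 CPM in muscle, and summed proximal tubule markers 2745 to 10636 CPM in kidney. In such bulk samples, fewer cells of a type and less RNA per cell cannot be told apart. The 95th percentile of 1135 olfactory receptor genes, taken as a low-signal background after the values were seen, was 0.287 CPM per exon kilobase in left ventricle, 0.335 in muscle and 0.242 in kidney. All 9 members lay above it on average, but Stra6 reached only 1.43 times that level in left ventricle and 1.44 times in muscle, and Aldh1a7 only 1.18 times in left ventricle.

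**Figure D1:**
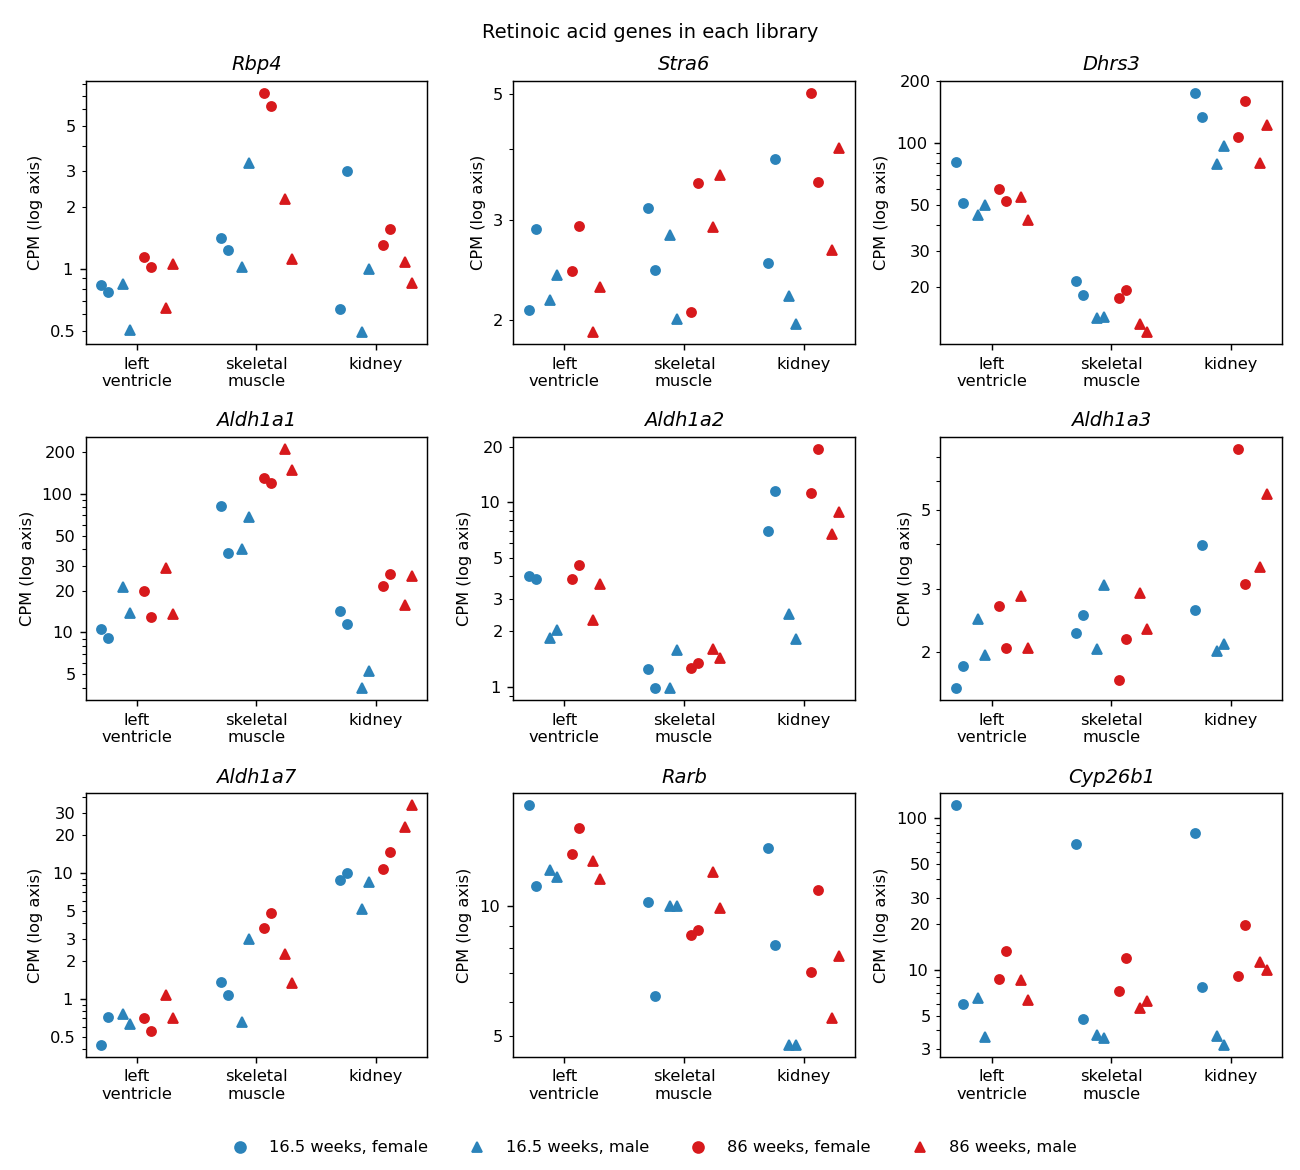
Level of each of the 9 genes in every library, in CPM on a log axis, with 16.5-week mice in blue, 86-week mice in red, females as circles and males as triangles. Dhrs3 was highest in kidney (79.7 to 175 CPM), Aldh1a1 in skeletal muscle (37.5 to 209.7 CPM), and Cyp26b1 stood apart in 1 mouse of the younger age in all 3 tissues.

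Rbp4 encodes the retinol carrier of plasma, made mainly by liver and fat. Its gene lies on chromosome 19 at 38116629 to 38125281 (GRCm38, minus strand). In skeletal muscle the 16.5-week mice had 1.42, 1.23, 1.02 and 3.30 CPM (females 14 and 15, males 19 and 20). The 86-week mice had 7.22, 6.26, 2.19 and 1.12 CPM (females 11 and 12, males 14 and 17). The older females were the highest, and the ages overlapped through young male 20 and old male 17. The age difference in muscle was 1.05 ± 0.49 on the log2 scale (SE, 86 minus 16.5 weeks), and it moved to 1.75 without young male 20 and to 0.68 and 0.63 without young females 14 and 15. In left ventricle Rbp4 was 0.506 to 1.14 CPM and in kidney 0.491 to 3.005 CPM.

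Rbp4 followed fat markers across the libraries. Over the 24 libraries, with each tissue's mean removed, the genes most like Rbp4 among 16021 compared were Plin1 (r = 0.93), Retn (r = 0.92) and Adipoq (r = 0.91), the first a coat protein of fat droplets and the others fat hormones. These 3 genes belong to a list of 6 adipocyte markers whose summed level in young muscle was 28.8, 40.0, 17.5 and 151 CPM (females 14 and 15, males 19 and 20). In old muscle the sum was 277, 227, 103 and 24.6 CPM (females 11 and 12, males 14 and 17). The 4 muscles with the most adipocyte marker RNA were the 4 with the most Rbp4. In kidney the highest Rbp4 library, 16.5-week female 15 at 3.005 CPM, was also the one with the highest adipocyte sum, 133 CPM against 3.99 to 25.1 CPM in the other 7. No marker of the list was at 0 in all libraries of any group. The part of fat tissue in the Rbp4 differences was not tested.

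**Figure D2:**
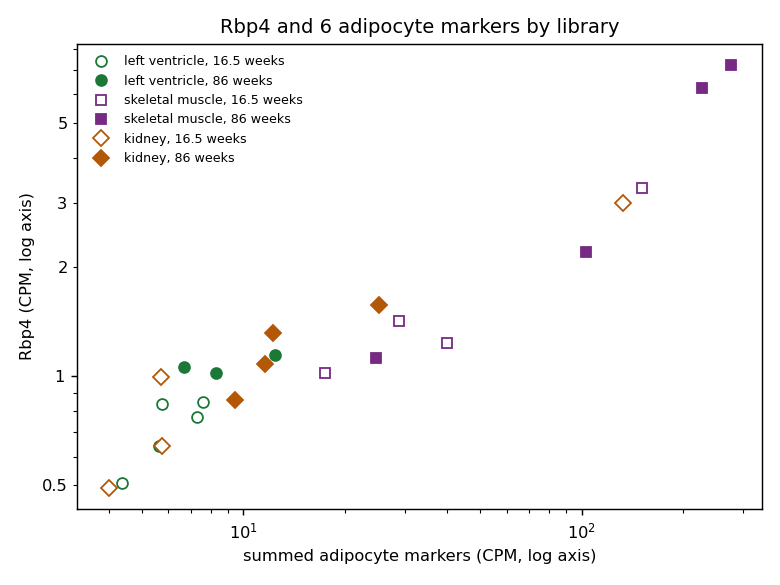
Rbp4 against the sum of 6 adipocyte markers in each of the 24 libraries, both in CPM on log axes, with open symbols at 16.5 weeks and filled symbols at 86 weeks. The upper right holds 4 muscles and 1 kidney, with adipocyte sums of 103 to 277 CPM.

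Stra6, a membrane receptor that takes retinol from its carrier, was low in all 3 tissues (chromosome 9, 58063788 to 58153996, plus strand). It ranged from 1.90 to 2.92 CPM in left ventricle, from 2.00 to 3.59 CPM in muscle and from 1.96 to 5.01 CPM in kidney. In kidney the 86-week mice had 5.01, 3.49, 2.65 and 4.01 CPM and the 16.5-week mice 2.51, 3.84, 2.20 and 1.96 CPM, so the ages overlapped. The kidney age difference was 0.58 ± 0.19 on the log2 scale. The genes most like Stra6 over the 24 libraries were Zfp583 (r = 0.85), Gprin1 (r = 0.83) and Kif1a (r = 0.76).

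Dhrs3 returns retinaldehyde to retinol and is itself known to respond to retinoic acid (chromosome 4, 144892827 to 144928209, plus strand). It was the most abundant member per exon kilobase in kidney and left ventricle, at 40.9 ± 12.1 CPM per kilobase in kidney (SD, n = 8), 18.7 ± 4.14 in left ventricle and 5.59 ± 1.13 in muscle. Kidney ran from 79.7 to 175 CPM, left ventricle from 42.3 to 81.4 CPM and muscle from 12.1 to 21.4 CPM. Muscle lay below both other tissues in every library, and the highest left ventricle lay above the 2 lowest kidneys. Kidney exceeded left ventricle by 1.11 ± 0.12 and muscle by 2.86 ± 0.12 on the log2 scale (SE). Age moved it little, with log2 differences of -0.10 ± 0.14 in left ventricle, -0.10 ± 0.11 in muscle and 0.02 ± 0.14 in kidney. Its most similar genes were Foxp1 (r = 0.87), Ncbp3 (r = 0.86) and Fbxl7 (r = 0.85).

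Aldh1a1, a dehydrogenase that oxidises retinaldehyde to retinoic acid, was the most abundant member per exon kilobase in muscle. Its gene lies on chromosome 19 at 20492715 to 20643465 (plus strand). In muscle the 16.5-week mice had 81.8, 37.5, 40.2 and 67.8 CPM and the 86-week mice 129, 119.8, 209.7 and 149.5 CPM (females first in each). Every old muscle lay above every young one, and the log2 difference was 1.43 ± 0.24. In kidney the young mice had 14.3 and 11.4 CPM (females) and 3.94 and 5.25 CPM (males), and the old mice 21.6 and 26.2 CPM (females) and 15.7 and 25.4 CPM (males). Again no old library was as low as a young one, and the log2 difference was 1.54 ± 0.22. In left ventricle the ages overlapped, at 9.09 to 21.3 CPM and 12.9 to 29.3 CPM, with a log2 difference of 0.50 ± 0.21. The adipocyte sums given above were 103 to 277 CPM in 3 of the 4 old muscles and 24.6 CPM in old male 17, and 17.5 to 40.0 CPM in 3 of the 4 young muscles and 151 CPM in young male 20. The part of fat tissue in the Aldh1a1 difference was not tested. Gdf10 (r = 0.81), Zfp677 (r = 0.81) and Casp1 (r = 0.79) were the genes most like Aldh1a1.

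Non-overlap of the ages was counted after the values were seen. In muscle Aldh1a1 was 1 of 9 members whose old mice all exceeded the young, where 1.44% of all genes tested did so. In kidney Aldh1a1 and Aldh1a7 were 2 of 9, against 1.89% of all genes, and in left ventricle the count was 0 of 9, against 1.29%. Since the members were chosen on this contrast, nothing is read from these counts.

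Aldh1a7 is a close copy of Aldh1a1 that lies beside it on the opposite strand (chromosome 19, 20692953 to 20727562). Whether its enzyme oxidises retinaldehyde was not examined here. Both starts are shown because their upstream bases are alike while their tissues were not. Aldh1a1 had 2 RefSeq windows, and the one that aligned better with the only Aldh1a7 window was taken, so this likeness was selected for. The Aldh1a1 start used lies inside the annotated gene. The sequences are the last 150 bases before a RefSeq start of each gene (GRCm38.p6, 5′ to 3′ on the strand of the gene), at chr19:20601818-20601967 on the plus strand and chr19:20727557-20727706 on the minus strand, with the longest stretch common to both, 65 bases, in capitals.
Aldh1a1: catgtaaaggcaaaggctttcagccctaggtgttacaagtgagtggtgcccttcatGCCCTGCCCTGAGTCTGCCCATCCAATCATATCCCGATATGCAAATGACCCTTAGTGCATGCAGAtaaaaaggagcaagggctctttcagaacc
Aldh1a7: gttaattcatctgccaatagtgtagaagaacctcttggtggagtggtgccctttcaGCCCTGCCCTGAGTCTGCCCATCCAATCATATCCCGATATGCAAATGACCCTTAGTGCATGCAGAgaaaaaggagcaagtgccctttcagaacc
Over 250 upstream bases 70.4% of positions were identical. The longest reading frames of their transcripts were 91.6% identical, against 66.0% to 68.8% for the other pairs of these dehydrogenases. The transcripts share 151 stretches of 50 bases, 7.49% of those in Aldh1a7, and 1 stretch of 100 bases. The read length is not given in the sources used here, so counts at shared stretches could have been split between both genes and their values are uncertain to that extent.

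Despite that likeness the tissues of the copies differed. Aldh1a7 averaged 6.94 ± 4.69 CPM per exon kilobase in kidney, 1.10 ± 0.698 in muscle and 0.337 ± 0.0897 in left ventricle (SD, n = 8). Aldh1a1 averaged 3.13 ± 1.72 CPM per exon kilobase in kidney, 21.2 ± 11.97 in muscle and 3.30 ± 1.36 in left ventricle. Per exon kilobase, Aldh1a7 was 0.0213 to 0.105 times Aldh1a1 in muscle, 0.0846 to 0.187 times in left ventricle and 1.18 to 3.82 times in kidney. The kidney order rests partly on the exon lengths used, 4.937 kilobases for Aldh1a1 and 2.066 for Aldh1a7. In CPM, Aldh1a7 was below Aldh1a1 in every female kidney, with means of 10.97 ± 2.51 and 18.4 ± 6.74. It was above Aldh1a1 in every male kidney, with means of 17.7 ± 13.5 and 12.6 ± 10.03 (SD, n = 4). Within kidney the ratio of Aldh1a7 to Aldh1a1 per exon kilobase was 1.47, 2.08, 1.18 and 1.33 in the females and 3.15, 3.82, 3.51 and 3.23 in the males. The sexes did not overlap in this ratio, which was singled out after its values were seen and was not tested.

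In kidney Aldh1a7 was 8.76 and 9.92 CPM in young females, 5.19 and 8.39 CPM in young males, 10.7 and 14.5 CPM in old females and 23.0 and 34.3 CPM in old males. The old males were highest and the log2 age difference over both sexes was 1.29 ± 0.27. Whether it differed between the sexes was not tested. Among 16021 genes, Nnmt (r = 0.81), Msn (r = 0.78) and Adamts5 (r = 0.77) had the pattern most like it over the 24 libraries, tissue means removed.

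Aldh1a2, the retinaldehyde dehydrogenase that is essential in the embryo, was highest in kidney (chromosome 9, 71215789 to 71296243, plus strand). Its kidney values were 7.02 and 11.5 CPM in young females, 2.48 and 1.82 CPM in young males, 11.3 and 19.3 CPM in old females and 6.71 and 8.83 CPM in old males. Old males lay above both young males, old females overlapped young females, and young males were lowest of all. The log2 age difference was 1.29 ± 0.24. Left ventricle held 1.84 to 4.55 CPM and muscle 0.984 to 1.61 CPM. Its 3 most similar genes were Cyp2c23 (r = 0.82), Creb3l1 (r = 0.81) and Spidr (r = 0.79). Aldh1a3, a further dehydrogenase of the same family, was lower (chromosome 7, 66390890 to 66427517, minus strand). It ranged from 2.01 to 7.36 CPM in kidney, from 1.59 to 2.87 CPM in left ventricle and from 1.67 to 3.07 CPM in muscle, and its kidney age difference was 0.93 ± 0.25 on the log2 scale. No gene was above r = 0.69 with Aldh1a3, the value of Zbtb32 and Vcan, and Fcgbp followed at 0.68.

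All 4 dehydrogenases had higher estimates in old than in young kidney, by 0.93 to 1.54 on the log2 scale, where the median of all genes was 0.02. They were chosen with this contrast known, so nothing is read from their shared direction or from that median. Macrophage markers were estimated higher in 6 of 6 and fibroblast markers in 6 of 6, with median log2 differences of 0.57 and 0.30 and none past the adjusted threshold. The summed macrophage level was 64.7 to 80.9 CPM at 16.5 weeks and 71.8 to 156.7 CPM at 86 weeks, and the fibroblast sum 116 to 255 CPM and 167 to 284 CPM. The highest macrophage sum was that of old female 12 alone. The other old kidneys had 82.5, 71.8 and 77.6 CPM (female 11, males 14 and 17). Proximal tubule markers had a negative estimate in 7 of 8, with a median of -0.28 and sums of 4225 to 10636 CPM and 2745 to 8979 CPM. The part of any of these cells in the dehydrogenase values was not tested.

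**Figure D3:**
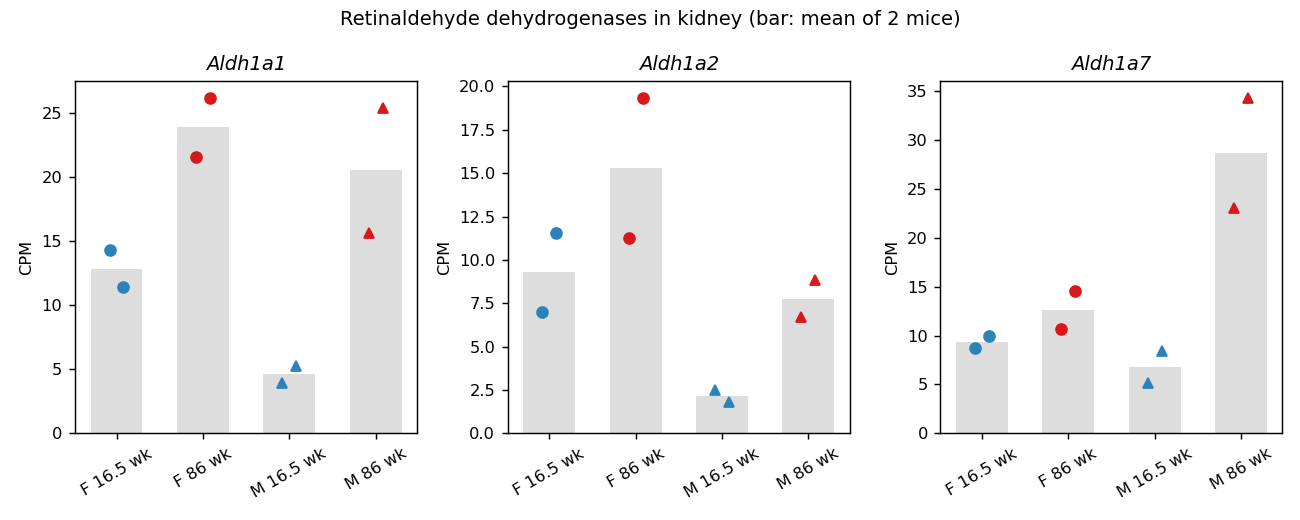
Aldh1a1, Aldh1a2 and Aldh1a7 in kidney, in CPM, by sex (F, M) and age, with a point per mouse and bars at the mean of 2 mice. Young males were lowest for all 3 genes, and old males were highest for Aldh1a7, at 23.0 and 34.3 CPM.

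Rarb encodes a retinoic acid receptor whose gene is a textbook target of retinoic acid (chromosome 14, 16430839 to 16819156, minus strand). Its promoter is shown because it was the only one among 8 members with RefSeq windows that held a direct repeat of the kind retinoic acid receptors bind. The 250 bases before the RefSeq start, at chr14:16575477-16575726 on the minus strand (GRCm38.p6, 5′ to 3′), lie inside the annotated gene, and the repeat units are in capitals.
Rarb: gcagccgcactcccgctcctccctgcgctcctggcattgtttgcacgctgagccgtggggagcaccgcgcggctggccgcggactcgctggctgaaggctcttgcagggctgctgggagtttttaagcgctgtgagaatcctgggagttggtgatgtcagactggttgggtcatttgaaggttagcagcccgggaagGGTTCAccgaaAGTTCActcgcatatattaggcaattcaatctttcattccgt
The units GGTTCA and AGTTCA stand 5 bases apart, from -53 to -37 of the start. This spacing, called DR5, was found on either strand in 32 of 32851 promoter windows (250 bases before to 50 after a start, 0.0974%), while the DR1 and DR2 spacings were found in 0.222% and 0.268%. The windows of Aldh1a1, Aldh1a2, Aldh1a7, Cyp26b1, Dhrs3, Rbp4 and Stra6 held none of the 3 spacings.

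Rarb was highest in left ventricle, at 11.1 to 17.1 CPM, then muscle at 6.19 to 11.99 CPM and kidney at 4.77 to 13.6 CPM. Neighbouring tissues in that order overlapped in their ranges. Genes of similar pattern were Olfr1033 (r = 0.83) and Zfp9 (r = 0.81). The age differences were 0.02 ± 0.13 in left ventricle, 0.14 ± 0.15 in muscle and 0.11 ± 0.19 in kidney on the log2 scale. The exons of Rarb share 1793 bases with Top2b, a DNA topoisomerase on the opposite strand, and 227 with the antisense gene Gm48162. The strand setting of the counting is not given in the sources used here, so reads of the overlapping genes cannot be told apart.

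Cyp26b1, the cytochrome that degrades retinoic acid and rises when retinoic acid does, gave the largest departure of any member (chromosome 6, 84571414 to 84593908, minus strand). In left ventricle the 16.5-week mice had 122, 5.97, 6.55 and 3.62 CPM (females 14 and 15, males 19 and 20) and the 86-week mice 8.65, 13.3, 8.57 and 6.37 CPM (females 11 and 12, males 14 and 17). In muscle, in the same order, they had 67.8, 4.71, 3.70 and 3.54 CPM and 7.22, 11.9, 5.62 and 6.25 CPM. In kidney they had 80.5, 7.75, 3.64 and 3.21 CPM and 9.11, 19.8, 11.3 and 9.96 CPM. Young female 14 was highest in all 3 tissues, and old female 12 was next in each.

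The young female 14 level rested on 8437 counts in left ventricle, 4674 in muscle and 6790 in kidney. It was 18.6 times the median of the other 7 mice in left ventricle, 12.1 times in muscle and 8.84 times in kidney, and 9.14, 5.70 and 4.06 times the next mouse. Among 17249 genes with a mean of at least 1 CPM in each tissue, Cyp26b1 was the only 1 that exceeded the next mouse more than 4-fold in all 3 tissues in this female, and no gene did so in any of the other 7 mice. The threshold of 4 was set after the values were seen. This female was the highest of 8 in all 3 tissues for 110 of those genes (0.638%), within the 13 to 116 genes of the other mice.

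Dhrs3 was also highest in young female 14 in every tissue, by far less. It had 81.4 CPM in left ventricle, 21.4 CPM in muscle and 175 CPM in kidney, which were 1.35, 1.10 and 1.10 times the next mouse. Rarb was highest in this female in left ventricle, at 17.1 CPM, and in kidney, at 13.6 CPM, but in muscle old male 14 was higher, at 11.99 against 10.2 CPM. Of the other degrading enzymes, Cyp2s1 was highest in this mouse in left ventricle, at 1.19 times the next mouse, and in kidney, at 1.30 times, but not in muscle. Cyp26a1 was 0.693, 1.25 and 1.17 CPM in the left ventricle, muscle and kidney of this mouse. It was highest in this mouse in muscle only, at 1.06 times the next mouse. Cyp26c1 was 0.779, 0.725 and 0.699 CPM in the same order. The other mice had at most 1.42 CPM of Cyp26a1 and 1.56 CPM of Cyp26c1 in any tissue. Dhrs3 (r = 0.75) came next in likeness to Cyp26b1 after Prickle2 and Dapk2 (both r = 0.76), a likeness that this mouse's 3 libraries enter. Of the 67 other genes of the pathway none was highest in this mouse in all 3 tissues. Lrat, which makes retinyl esters, was highest in its kidney, at 11.96 CPM or 1.42 times the next mouse, but not in its other tissues.

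**Figure D4:**
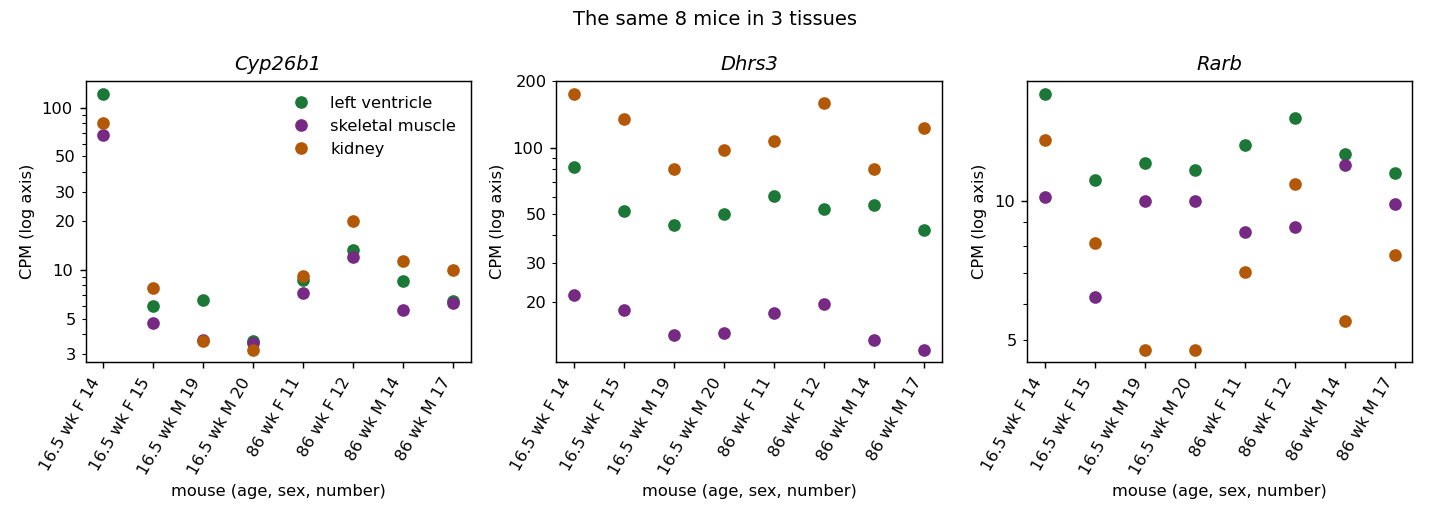
Cyp26b1, Dhrs3 and Rarb in the 3 tissues of each mouse, in CPM on log axes, with mice ordered by age and sex. Cyp26b1 was 67.8 to 122 CPM in the 16.5-week female 14 and 3.21 to 19.8 CPM in the other 7 mice.

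The estimate of the Cyp26b1 age difference turned from negative to positive in all 3 tissues when this mouse was left out. With all mice it was -1.04 ± 0.69 in left ventricle, -0.63 ± 0.68 in muscle and -0.03 ± 0.70 in kidney on the log2 scale. Without young female 14 it was 0.69 ± 0.21, 0.87 ± 0.20 and 1.35 ± 0.22. In kidney, where it was near 0, it was also positive without old female 11 (0.61) or old female 12 (0.36). The 3 remaining young kidneys, at 3.21 to 7.75 CPM, all lay below the 4 old kidneys, at 9.11 to 19.8 CPM. This mouse was set aside after its values were seen, and the share of all genes split in this way was not counted. Nothing is therefore read from that split.

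The tested contrast was sex, female minus male, within each tissue. In kidney 4 of 9 members were higher in females by edgeR's quasi-likelihood test at an adjusted p under 0.05, where 3.81% of all genes tested were higher and 7.58% were called either way. They were Aldh1a2, Rarb, Dhrs3 and Aldh1a1, and DESeq2 called the first 3. In kidney the sexes overlapped for all 9 members, where 4.66% of all genes were higher in every female than in every male. The median log2 difference of the 9 members was 0.84, against 0.02 over all genes. Leaving out a mouse gave between 1 call (without young male 19) and 5 calls (without young female 15, with Cyp26b1 added). Leaving out young female 14 gave 3, namely Aldh1a2, Rarb and Rbp4, with Dhrs3 and Aldh1a1 lost.

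Aldh1a2 showed the largest of these differences. Kidneys of females averaged 12.3 ± 5.14 CPM and of males 4.96 ± 3.37 CPM (SD, n = 4), a log2 difference of 1.53 ± 0.24 (SE) with an edgeR adjusted p of 7.84e-04. Females were higher than males within each age, and the call held in all 8 fits that left out a mouse, with adjusted p up to 0.00531. In left ventricle females had 4.00, 3.83, 3.86 and 4.55 CPM and males 1.84, 2.04, 2.31 and 3.59 CPM. No female overlapped a male there, as in 2.05% of all genes, and the log2 difference was 0.79 ± 0.18 with an edgeR adjusted p of 0.0441. It was the 1 of 9 members called in left ventricle, where 0.871% of genes were, and the call held in 1 of 8 fits without a mouse, the highest adjusted p being 0.178 without young male 19.

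The sex difference of Aldh1a2 varied between the 3 tissues. In muscle its log2 difference was -0.25 ± 0.20, and edgeR's test of the difference between tissues gave an adjusted p of 0.0109. It was 1 of 9 members so called, where 1.88% of all genes were. That call held in 4 of 8 fits without a mouse, with adjusted p up to 0.127 without young male 20. For Rarb the same test gave an adjusted p of 0.0650, and 0.0110 with the mouse as a block.

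Rarb, Dhrs3 and Aldh1a1 also passed in kidney. Rarb averaged 9.90 ± 2.96 CPM in females and 5.67 ± 1.36 CPM in males (SD, n = 4), a log2 difference of 0.84 ± 0.19 with an edgeR adjusted p of 0.0125. Its call was lost without young male 19, at an adjusted p of 0.0546. Top2b, whose exons overlap Rarb, averaged 104 ± 12.6 CPM in females and 87.9 ± 8.72 CPM in males, and its part in the Rarb counts was not tested. Dhrs3 averaged 144 ± 29.9 CPM in females and 94.9 ± 20.1 CPM in males, a log2 difference of 0.63 ± 0.15 with an edgeR adjusted p of 0.0137. It held in 5 of 8 fits and was lost without young female 14 (0.0510), young male 19 (0.0679) or old female 12 (0.0541).

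The kidney call of Aldh1a1 was lost in more fits than the other 3. Females averaged 18.4 ± 6.74 CPM and males 12.6 ± 10.03 CPM (SD, n = 4), a log2 difference of 0.86 ± 0.22 with an edgeR adjusted p of 0.0234. The call was lost without young female 14 (0.0581), young male 19 (0.0945), young male 20 (0.0831) or old male 14 (0.0605), and with DESeq2 (0.116). In left ventricle the estimate for Aldh1a1 had the other sign, -0.59 ± 0.21, at an adjusted p of 0.534, and 0.0243 without old male 17.

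Muscle gave 0 of 9 calls by edgeR, where 1.36% of genes were called, with 3 of 9 at an unadjusted p under 0.05 and 1 by DESeq2. That 1 was Dhrs3, at 21.4, 18.3, 17.7 and 19.5 CPM in females and 14.2, 14.4, 13.4 and 12.1 CPM in males. The sexes did not overlap, as in 3.37% of all genes, and the log2 difference was 0.46 ± 0.11 with adjusted p of 0.0508 by edgeR and 0.0106 by DESeq2. Dhrs3 was therefore estimated higher in females in all 3 tissues, with 0.38 ± 0.14 in left ventricle at an adjusted p of 0.588.

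The remaining members did not pass in any tissue with all mice. Cyp26b1 had the widest estimates, 2.12 ± 0.70 in left ventricle, 1.93 ± 0.69 in muscle and 2.04 ± 0.70 in kidney, with edgeR adjusted p of 0.410, 0.323 and 0.110. Without young female 14 they were 0.44, 0.53 and 0.75, and the kidney adjusted p was 0.0536; without young female 15 the kidney difference was 2.25 at 0.0458. Kidney Rbp4 (0.95 ± 0.38, adjusted p 0.186), Stra6 (0.51 ± 0.19, 0.142) and Aldh1a3 (0.48 ± 0.25, 0.364) had positive estimates, and Aldh1a7 a negative one (-0.36 ± 0.27, 0.617). Rbp4 passed in kidney without young female 14 (0.0280) and Aldh1a3 without old female 12 (0.0264). Without young female 15 the kidney Rbp4 estimate fell to 0.31, and without old female 11 that of Aldh1a3 fell to 0.20. In muscle Rbp4 (0.0477) and Aldh1a7 (0.0420) passed without young male 20. Without old male 17 the muscle estimates were 0.19 for Rbp4 and 0.02 for Aldh1a7.

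**Figure D5:**
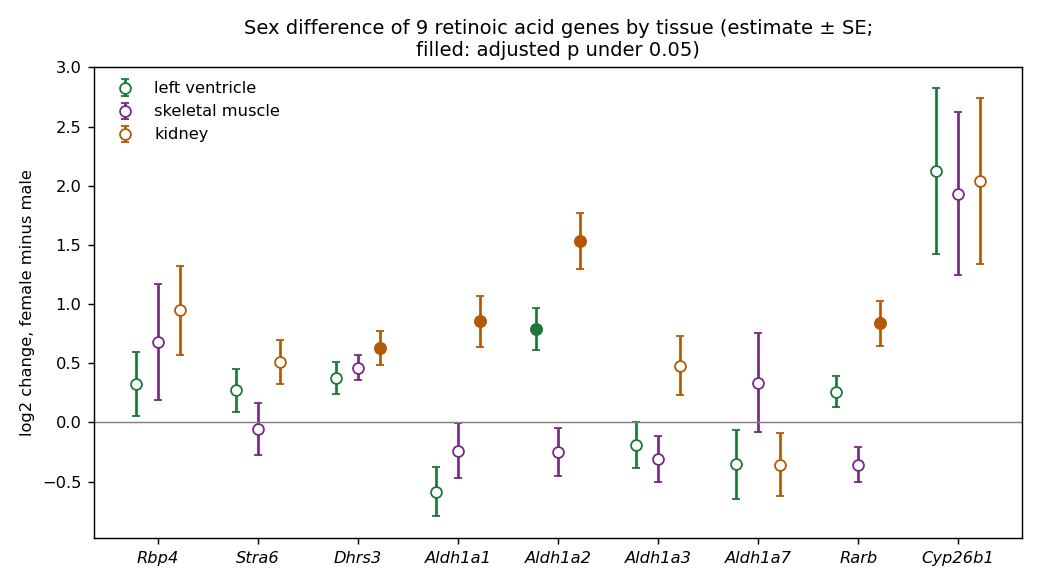
Log2 difference between females and males for each of the 9 genes in left ventricle, skeletal muscle and kidney, with bars for the standard error and filled points where the edgeR adjusted p was under 0.05. The filled points are Dhrs3, Aldh1a1, Aldh1a2 and Rarb in kidney and Aldh1a2 in left ventricle.

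Markers of kidney cell types moved with sex as well. Of 5 podocyte markers 5 rose in females (edgeR adjusted p under 0.05, median log2 difference 0.51), with a summed level of 236 to 348 CPM in females and 187 to 269 CPM in males. Of 8 proximal tubule markers 6 fell in females (median -1.24), with sums of 2745 to 5072 CPM in females and 8105 to 10636 CPM in males. Fibroblast markers rose in 2 of 6, with sums of 167 to 284 CPM and 116 to 191 CPM, and mesothelial markers in 1 of 6, with sums of 17.03 to 23.3 CPM and 13.8 to 16.7 CPM. Markers of the loop of Henle and distal tubule rose in 3 of 5 (median 0.60). Their sums, 4025 to 5102 CPM in females and 3080 to 3887 CPM in males, did not overlap, and neither did the proximal tubule and mesothelial sums. Of single genes in kidney, 4.66% were higher and 5.5% lower in every female than in every male. The podocyte sum was also 180 to 254 CPM in left ventricle. The loop and distal sum was also 2228 to 4947 CPM in muscle, but 7.59 to 22.7 CPM in left ventricle. Neither sum was therefore particular to kidney. A sum can rest on 1 abundant marker, so this does not extend to each marker of the lists. Collecting duct markers rose in 2 and fell in 1 of 6, with sums of 109 to 125 CPM and 88.2 to 117 CPM, and endothelial markers rose in 1 of 6, with sums of 223 to 309 CPM and 214 to 279.8 CPM. Of 6 skeletal fibre markers 1 rose and 1 fell, and no marker of the other 6 lists passed. Among these, adipocyte markers had positive estimates in 6 of 6 (median 1.78). Their sums were 5.73 to 132.9 CPM in females, highest in young female 15, and 3.99 to 11.6 CPM in males. The medians were 0.81 for cardiomyocyte, 0.52 for urothelium, 0.41 for macrophage, 0.17 for atrial and 0.06 for satellite cell markers. No marker of these lists was at 0 in all libraries of a group. Their part in the sex differences of the 4 genes was not tested.

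The other 67 genes of the pathway, listed by role, were compared in the same fits. By age edgeR called 0 of 67 in each tissue, with 1 in left ventricle, 2 in muscle and 8 in kidney at an unadjusted p under 0.05, and DESeq2 called 0, 0 and 2. The share of all genes called by age was 0.0741% in left ventricle, 0.0183% in muscle and 0.112% in kidney. The lowest edgeR p in left ventricle belonged to Rdh9 (0.92 ± 0.42, adjusted p 0.9997), and in muscle to Meis2 (0.56 ± 0.21, 0.820) and Rdh9 (-0.96 ± 0.41, 0.881). In kidney they belonged to Lpl, the lipoprotein lipase (-0.82 ± 0.15 on the log2 scale, adjusted p 0.0515), and Cyp2s1, a cytochrome (-0.45 ± 0.11, adjusted p 0.183).

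By sex, 22 of 67 passed in kidney, 10 higher and 12 lower in females, where 3.81% and 3.77% of all genes were. The count was 14 without young male 19 and at most 23 without any other mouse. Among 16 genes of retinol oxidation 4 were higher and 5 lower. Adh1, an alcohol dehydrogenase that oxidises retinol, fell most: females averaged 48.4 ± 11.6 CPM and males 258 ± 25.0 CPM (SD, n = 4), a log2 difference of -2.41 ± 0.12 with an edgeR adjusted p of 6.03e-09. Cd36, a fatty acid transporter, differed by -1.75 ± 0.17 (adjusted p 7.39e-06), Ttr, the plasma partner of the retinol carrier, by -1.41 ± 0.24 (0.00149) and Bco2, a carotenoid-cleaving enzyme, by -1.08 ± 0.11 (2.13e-05). The largest rises in females were of the retinol dehydrogenases Rdh9 (0.95 ± 0.18), Rdh16 (0.69 ± 0.12) and Rdh11 (0.60 ± 0.12) and of Lrat (0.89 ± 0.19). All 8 named genes passed in each of the 8 fits that left out a mouse.

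Of 6 other receptors in kidney, Rara (-0.44 ± 0.09) and Rxra (-0.38 ± 0.10), which were picked out after their values were seen, fell in females, where Rarb rose. Rara passed in 8 of 8 fits that left out a mouse and Rxra in 4 of 8, with adjusted p up to 0.0855 without old male 17. Muscle had 1 call of 67, Zbtb16, a zinc finger factor (0.51 ± 0.11, adjusted p 0.0281, passing in 2 of 8 fits without a mouse, up to 0.105 without young female 15), and left ventricle 0, with 6 at an unadjusted p under 0.05 and 1 by DESeq2, Awat2 (1.22 ± 0.32, edgeR adjusted p 0.121). The lowest p there was that of Lrp2 (-1.56 ± 0.40, adjusted p 0.103). The sex difference varied between tissues for Adh1 (adjusted p 2.69e-05), Cd36 (1.33e-04), Bco2 (0.00112) and Rdh10, a retinol dehydrogenase (0.0478, and up to 0.204 without old male 17).

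Between tissues, kidney exceeded left ventricle for 32 of 67 genes and was lower for 14, where 19.3% and 14.3% of all genes were called higher and lower. The largest were Lrp2, Aldh8a1, Cubn and Rdh16, 6.10 to 9.59 higher on the log2 scale, and Asb2, Rxrg, Rbp7 and Lpl, with differences of -6.33 to -3.15. Against muscle, kidney was higher for 36 and lower for 14, where 22.1% and 21.4% of all genes were, led by the same 4 genes upward and by Asb2, Rxrg, Zbtb16 and Ret downward. Left ventricle exceeded muscle for 19 and was lower for 15, where 15.4% and 11.3% of genes were, with Lpl, Cd36, Dhrs4 and Rbp7 highest and Hoxa5, Rdh9, Rxra and Asb2 lowest. Of 16 retinol-oxidising genes, 10 were higher and 2 lower in kidney than in left ventricle. The median of all genes in these fits was -0.10, -0.23 and -0.12.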

How the data were processed

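The authors deposited 1 table of raw read counts per gene, whole numbers for 24 libraries. Alignment with STAR 2.7.6a, StringTie 2.1.1 and the build GRCm38.p6 are per the submitters' processing notes. The annotation release, the strand setting and how counts were taken are not given in the sources used here. Of 55401 gene IDs, 54349 matched GENCODE M21, which gave exon lengths.

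The members and lists were chosen with earlier results of these data known. Genes passed edgeR's filterByExpr, TMM factors were used, and edgeR quasi-likelihood tests (4.0.16, limma 3.58.1, R 4.3.3) were adjusted by Benjamini-Hochberg over all genes at 0.05. Age and sex were fitted within a tissue (8 libraries, 5 residual degrees of freedom plus the spread shared across genes), tissues and the sex difference between tissues over 24 libraries (15 degrees of freedom). Scripts were tested on simulated data. Levels are given ± SD and log2 differences ± SE. All 9 members are named, with up to 4 other pathway genes each way per comparison, or the 2 of lowest p where none passed. The genes most like a member had the highest Pearson r of log2 CPM (prior count 2, mean of at least 1 CPM, predicted models left out). The comparison of mouse 14, the non-overlap counts, Top2b, the shared stretches and the Aldh1a7 ratio were picked after values were seen. A few genes that the naming rule gives are not reported here.

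Each mouse gave all 3 tissues, so its number pairs libraries across tissues. Deviations from the tissue mean, which keep shared differences of age and sex, correlated by 0.042 to 0.29 within a mouse. Alternatives were RLE size factors, no filter, DESeq2 1.42.0, a single fit of 24 libraries, the mouse as a block and leaving out each mouse. Promoter sequences are from RefSeq (GRCm38.p6), read with Python 3.11.15 and Biopython 1.88.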

Additional observations from a re-analysis of the deposited data

Results flagged for a closer look

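In 5 of 54 groups of 4 mice (a member, tissue and age) 1 mouse stood apart from the other 3 by Dixon's criterion, where chance gives about 1 group in 20. Cyp26b1 gave 3 of them, all in the 16.5-week female 14, at 122 CPM in left ventricle, 67.8 CPM in skeletal muscle and 80.5 CPM in kidney. In the same mouse Rarb stood apart in left ventricle at 17.1 CPM. In 16.5-week muscle Rarb stood apart downward in female 15, at 6.19 CPM.

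The sex difference of Aldh1a2 differed between the 3 tissues, with an edgeR adjusted p of 0.0109.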

How the results depend on the processing

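Only 2 mice per age and sex limit the precision. The cause of each shift was not tested. Genes called by edgeR numbered 33 (left ventricle), 8 (muscle) and 50 (kidney) by age and 388, 594 and 3380 by sex. Without the filter they were 18, 0 and 1 by age, and 725 (left ventricle) and 918 (muscle) by sex. DESeq2 gave 73, 89 and 231 by age. A single fit of 24 libraries gave 25 (muscle) and 28 (kidney) by age, and 702 (left ventricle) and 1091 (muscle) by sex. Leaving out a mouse gave 24 to 117, 1 to 43 and 19 to 69 by age, and 161 to 374, 345 to 718 and 2487 to 3841 by sex. Of the members' sex differences under all alternatives, 294 kept direction and call, 20 lost a call, 8 gained one and 2 turned sign. Both were Stra6 in muscle, at -0.06 with all mice, 0.14 without old female 11 and 0.10 without old male 17, within -0.20 to 0.14 over mice left out. RLE factors moved the median of all genes by at most 0.054 in the tissue contrasts.

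No paired analysis was possible because the ages and sexes share no mouse within a tissue; number 14 names different mice. Between tissues the replicate block by mouse gave 15507, 19846 and 12303 genes (15770, 20437 and 12516 without it), and 846 for the sex difference between tissues (882 without it). In that last test it changed 1 member's call, Rarb, from 0.0650 to 0.0110. Between tissues, where members are not tested, the block moved Cyp26b1 from 0.49 ± 0.58 to 0.45 ± 0.12 (kidney against muscle), from -0.02 ± 0.57 to 0.05 ± 0.12 (kidney against left ventricle) and from 0.51 ± 0.58 to 0.40 ± 0.12 (left ventricle against muscle). The count of other pathway genes went from 46 to 47, 50 to 49, 34 to 34 and 4 to 4.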
